A study of Rattus norvegicus with 15 samples.

Results

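The outer segment disc and matrix genes are a set of 10 genes chosen by symbol: Prph2, Rom1, Rp1, Abca4, Fscn2, Impg1, Impg2, Reep6, Cdhr1 and Prom1. In the table of 20375 genes, 9 of the 10 were found by symbol. Prph2 was not found under that symbol and is not analysed here. All 9 passed the filter on low values that left 15424 genes to be tested, and each passed it in all 5 groups. Expression was measured by RNA-Seq of the retina in wild-type Sprague-Dawley rats, 3 libraries in each of 5 groups, labelled as post-natal week 12 and day 31 after transplantation. The NT group was healthy and received no treatment. The Sham group received sodium iodate, a compound toxic to the retinal pigment epithelium, at 40 mg/kg, with an intravitreal injection of vehicle. The MSC, MSCEPO and DPSC groups received the same compound and dose and an intravitreal injection of cells: mesenchymal stem cells from human umbilical cord, such cells modified to express erythropoietin (EPO), and cells labelled DPSC. Per the study's methods, which describe MSC and MSCEPO, the cells were injected before the sodium iodate and not after it. Rats with transplants received dexamethasone at 2 mg/kg and then cyclosporin at 10 mg/kg/day. Whether the Sham rats also received these drugs is not given in the sources used here, so the cells and the drugs cannot be told apart in comparisons with Sham or NT.

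The rod outer segment is a stack of membrane discs that holds the visual pigment and is renewed throughout life. New discs form at its base, and old ones are taken up at the tip by the retinal pigment epithelium. Proteins of the disc rim hold the discs flat, proteins of the axoneme and of the forming disc set their alignment and closure, and an extracellular matrix between the photoreceptors and the epithelium surrounds the whole structure. Mutations in these genes are known as causes of inherited retinal degeneration.

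The deposited values are regularized log (rlog) values on a log2 scale, corrected for library size and shrunken by the authors toward each gene's mean, so differences computed from them are smaller than those from counts. They are not scaled by gene length, and levels are therefore compared between groups and not between genes. They hold no counts, and sequencing depth cannot be read from them. The labels do not name separate animals for the replicates, and p-values measure the spread between these libraries. A gene is named as changed where limma gave an adjusted p under 0.05 over all genes tested, and as a DEG where the log2 fold change was also over 1 in size. Rod marker genes were present in all 15 libraries, with a mean rlog value over 12 genes from 13.6 to 15.3, and 13 retinal pigment epithelium marker genes were also present, with a mean from 8.63 to 11.0.

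MSCEPO replicate 3 stood apart, at a Euclidean distance of 88.8 from the mean of the other 2 libraries of its group. MSC replicate 1 followed at 70.3, against 23.9 to 64.9 for the remaining libraries. For MSCEPO replicates 1 and 2 that mean includes replicate 3. In a bulk retina, fewer photoreceptors and less RNA per photoreceptor cannot be told apart.

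Abca4 (ENSRNOG00000012892), Impg1 (ENSRNOG00000012479) and Impg2 (ENSRNOG00000001622) are shown by their promoters because these held the core of a motif of photoreceptor factors. TAATC and its reverse complement GATTA are the core that homeodomain proteins such as CRX and OTX2 bind. The letters were searched on both strands from 250 bases before to 50 bases after each gene start, in RefSeq sequences of build GRCr8, where 8 of the 9 analysed genes had a promoter and Rp1 was not in the table. Of those 8 genes, 3 held the core, Abca4, Impg1 and Impg2, against 22.9% of 33469 promoters in the table. Prph2 held it too, and Rom1, Fscn2, Reep6, Cdhr1 and Prom1 did not. Capitals mark the core, and each window runs 5′ to 3′ on the strand of the gene, from 135 to 16 bases before its start.
Abca4, chr2:212849350-212849469, plus strand: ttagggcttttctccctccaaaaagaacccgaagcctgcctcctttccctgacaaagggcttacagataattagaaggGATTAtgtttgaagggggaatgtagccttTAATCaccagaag
Impg1, chr8:90269919-90270038, minus strand: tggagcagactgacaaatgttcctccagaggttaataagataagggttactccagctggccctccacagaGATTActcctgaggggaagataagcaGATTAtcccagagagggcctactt
Impg2, chr11:57887466-57887585, minus strand: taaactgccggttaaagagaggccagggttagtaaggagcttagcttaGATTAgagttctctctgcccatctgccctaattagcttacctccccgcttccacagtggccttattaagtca
In Abca4 the matches began 57 and 28 bases before the start, in Impg1 65 and 39 bases, and in Impg2 87 bases. Both matrix genes held the core. The longer string TAATCC and its reverse complement GGATTA were also searched. They were in the promoters of Abca4 and Prph2, not in those of Impg1 and Impg2, and in 7.2% of all promoters. The letters TGCTGA, part of the site that NRL binds, and their reverse complement TCAGCA were in 0 of the members' promoters and in 18.4% of all promoters. A match is a description of the letters in a window and not of binding.

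**Figure D1:**
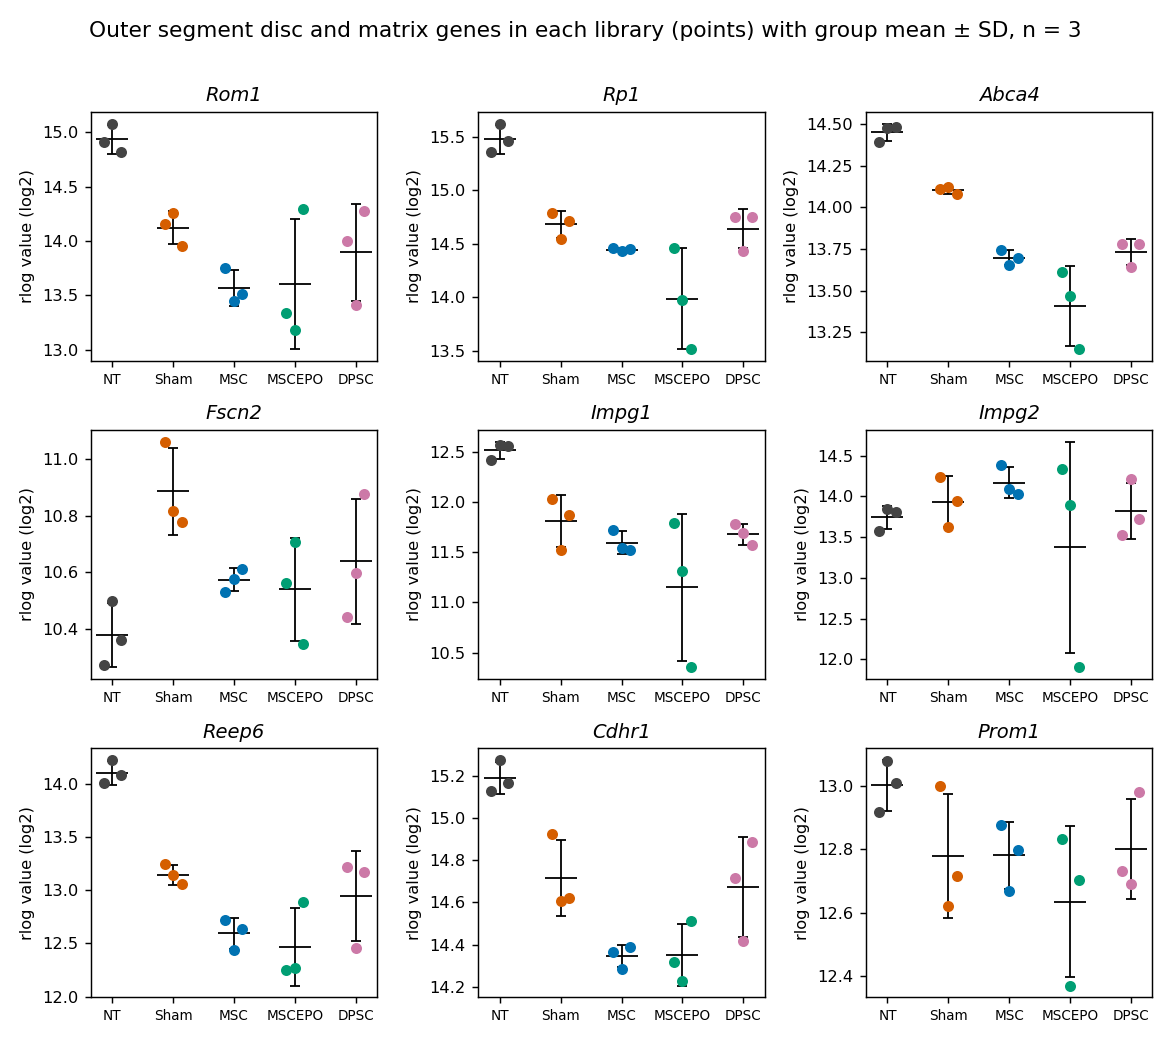
rlog value (log2, y axis of each panel on its own scale) of the 9 genes in each library, by group; points are libraries, the horizontal mark and bar are the mean ± SD of 3. Abca4 runs from 14.39 to 14.49 in NT and from 13.15 to 13.61 in MSCEPO, with Sham, MSC and DPSC between, whereas Impg2 has 1 low point, MSCEPO replicate 3 at 11.90.

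The first question was how the genes differed between the sodium iodate retina with vehicle and the healthy retina. Reep6 was the 1 gene of the 9 that fell past the threshold in Sham, at 1.95-fold below NT. Rom1, Rp1, Impg1, Abca4 and Cdhr1 also had all 3 Sham libraries below all 3 NT libraries but missed the threshold, and Fscn2 had all 3 above. Over all genes tested, 0.888% were called in either direction, 0.331% as lower and 0.558% as higher; 15.3% of all genes lay lower and 16.6% higher without overlap of the groups.

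Reep6 (ENSRNOG00000033262), an endoplasmic reticulum protein that rods need for membrane trafficking, had rlog values of 14.01, 14.23 and 14.08 in NT. In Sham its values were 13.24, 13.14 and 13.05. The groups did not overlap, and the log2 fold change was -0.96 (SE 0.20, limma adjusted p = 0.0499). That call lies at the threshold and was lost on leaving out any of 13 of the 15 libraries, one at a time.

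Rom1 (ENSRNOG00000019858), the tetraspanin that pairs with peripherin in the disc rim, had values of 14.91, 15.08 and 14.81 in NT. In Sham they were 14.16, 14.26 and 13.96, a log2 difference of -0.81 (SE 0.27, limma adjusted p = 0.202). Rp1 (ENSRNOG00000008807), a microtubule-associated protein of the axoneme that keeps discs aligned, ranged from 15.35 to 15.62 in NT and from 14.54 to 14.79 in Sham, a log2 difference of -0.80 (SE 0.19, limma adjusted p = 0.083). Both genes had every Sham library under every NT library without passing the test.

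Abca4, the flippase that clears retinoids from disc membranes, had values of 14.39, 14.48 and 14.49 in NT. In Sham they were 14.11, 14.12 and 14.08, a range of 0.043 within the group, and the log2 difference was -0.35 (SE 0.11, limma adjusted p = 0.195). Cdhr1 (ENSRNOG00000013330), a cadherin at the edge of forming discs, ranged from 15.13 to 15.28 in NT and from 14.61 to 14.93 in Sham, a log2 difference of -0.48 (SE 0.14, limma adjusted p = 0.150). Prom1 (ENSRNOG00000003098), a membrane protein of the same forming discs, overlapped between the groups, with 12.92 to 13.08 in NT and 12.62 to 13.00 in Sham.

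Fscn2 (ENSRNOG00000036700), the photoreceptor form of the actin-bundling protein fascin, went the other way. Its values were 10.27, 10.50 and 10.36 in NT. In Sham they were 11.06, 10.82 and 10.78, a log2 difference of 0.51 (SE 0.13, limma adjusted p = 0.0899). The 2 groups did not overlap, but the difference missed the threshold.

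MSCEPO replicate 3 enters the shared estimate of the spread although it belongs to neither group. Without it, 6 of the 9 genes passed the threshold in Sham against NT, beside 2.93% of all genes tested: Rp1, Reep6, Impg1, Abca4 and Rom1 as lower and Fscn2 as higher. Their limma adjusted p-values were then 0.0161, 0.0158, 0.025, 0.0392, 0.0412 and 0.0367, in that order, at unchanged log2 differences. With any other library left out the count was 0 or 1.

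The matrix between photoreceptors and epithelium is carried by the proteoglycans that Impg1 and Impg2 encode. Impg1 had values of 12.42, 12.57 and 12.56 in NT. In Sham they were 12.03, 11.52 and 11.87, a log2 difference of -0.71 (SE 0.26, limma adjusted p = 0.276). Impg2 had values of 13.58, 13.84 and 13.81 in NT. In Sham they were 14.24, 13.62 and 13.94, a log2 difference of 0.19 (SE 0.46, limma adjusted p = 0.947), so the 3 libraries of Impg1 moved below NT while those of Impg2 overlapped with it.

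The difference Impg1 minus Impg2 within a library compares the paralogs on 1 scale of change, although its level depends on gene length. It was -1.23 ± 0.06 (SD, n = 3) in NT and -2.13 ± 0.07 (SD, n = 3) in Sham, with no overlap. In the 12 libraries with sodium iodate it ran from -2.67 to -1.55, all below the NT range of -1.27 to -1.16. The mean of the 12 differed from that of NT by -1.04 on the log2 scale, with p = 0.0044 in a two-sided exact permutation test, the smallest p this design allows, and 0.0132 adjusted over 3 tests. That test pools Sham with MSC, MSCEPO and DPSC, which all had an intravitreal injection that NT lacked. The 9 cell-injected libraries also had cells and drugs, so these, the injection and sodium iodate cannot be told apart in it. For Sham against NT the change was -0.90 with an exact permutation p = 0.1, also the smallest possible with 3 libraries in each group.

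The paralog difference was not shown to differ between the cell-injected libraries and Sham. Over the 9 cell-injected libraries it was -2.31 ± 0.40 (SD, n = 9), a change of -0.19 from Sham with an exact permutation p = 0.482. Without MSCEPO replicate 3 the change was -0.28 (exact permutation p = 0.17). The MSC libraries lay between -2.67 and -2.51, below the Sham range, and MSCEPO replicate 3 at -1.55 was the closest to NT.

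**Figure D2:**
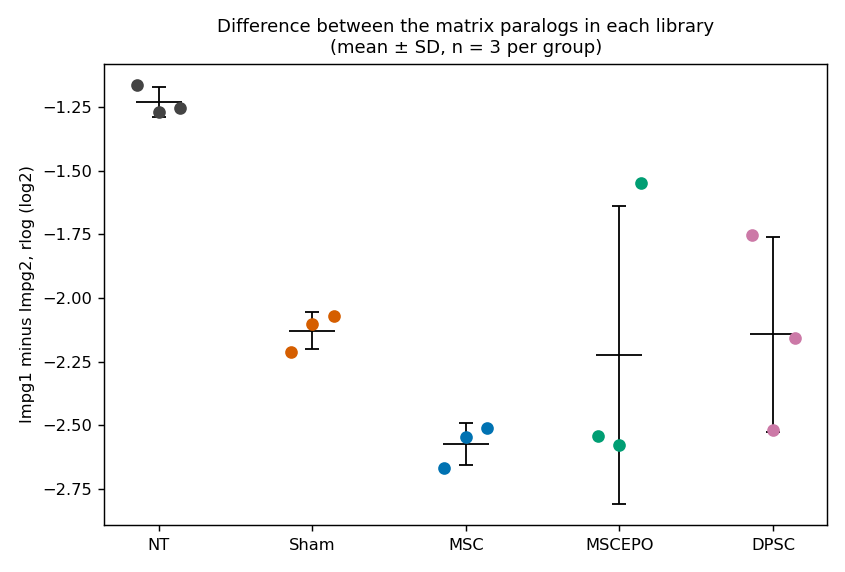
Impg1 minus Impg2 in rlog (log2, y axis) in each library, by group; points are libraries, and the mark and bar are the mean ± SD of 3. The 3 NT libraries sit between -1.27 and -1.16, above all 12 libraries with sodium iodate, and MSCEPO replicate 3 at -1.55 and DPSC replicate 1 at -1.75 are the nearest to them.

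The cell-injected groups were then compared with the healthy retina. In MSC, Reep6, Rom1, Rp1, Impg1, Cdhr1 and Abca4 fell, 6 of the 9 genes, beside 6.37% of all genes tested that were called as lower. In MSCEPO the same 6 genes fell, beside 5.81%. In DPSC, Reep6, Rp1 and Abca4 fell, beside 1.41%. No gene of the set was called as higher in MSC, MSCEPO or DPSC, beside 11%, 5.83% and 1.43% of all genes, and calls in either direction made up 17.4%, 11.6% and 2.85%. These comparisons share the NT libraries.

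By the DEG rule, 3 genes fell in MSC (Reep6, Rom1 and Rp1), beside 0.985% of all genes, 5 in MSCEPO (these 3 with Impg1 and Abca4), beside 1.24%, and 1 in DPSC (Reep6), beside 0.259%. In Sham 0 did, beside 0.0259%. Without MSCEPO replicate 3 the count in MSCEPO was 3, since Impg1 (-0.96) and Abca4 (-0.91) were still called but no longer over 1 in size, and the count in DPSC was 2 (Reep6 and Rom1). Counted by overlap alone, 7 genes of the set lay lower in MSC, 7 in MSCEPO and 6 in DPSC, beside 21.2%, 15% and 15.7% of all genes, and 2 lay higher in MSC (Fscn2 and Impg2), beside 22.9%.

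Reep6 had the lowest fitted difference of the set in each of the 3 groups. Its values were 12.72, 12.43 and 12.64 in MSC, a level 2.85-fold below NT (log2 fold change -1.51, SE 0.20, limma adjusted p = 0.000963). In MSCEPO they were 12.25, 12.27 and 12.89, which is 3.11-fold below NT (log2 fold change -1.64, limma adjusted p = 0.00043). In DPSC they were 13.22, 12.46 and 13.17, which is 2.23-fold below NT (log2 fold change -1.16, limma adjusted p = 0.011), with DPSC replicate 2 in the range of MSC and the other 2 in that of Sham. The DPSC call was lost without NT replicate 2 (limma adjusted p = 0.056) or NT replicate 3 (0.0506), and without DPSC replicate 2 the log2 fold change was -0.91, no longer a DEG.

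Rom1 had values of 13.75, 13.44 and 13.51 in MSC, a log2 fold change of -1.37 from NT (SE 0.27, limma adjusted p = 0.00527). In MSCEPO they were 13.34, 13.18 and 14.29, a log2 fold change of -1.33 (limma adjusted p = 0.0075) that became -1.68 without replicate 3. In DPSC they were 14.00, 13.41 and 14.28, and the log2 difference of -1.04 missed the threshold (limma adjusted p = 0.057). The spread of Rom1 was thus wider in MSCEPO and DPSC, with ranges of 1.11 and 0.87, than in NT, Sham or MSC, where the widest range was 0.31.

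Rp1 fell as a DEG in MSC, by 1.03 on the log2 scale (SE 0.19, limma adjusted p = 0.00434), where its 3 libraries lay between 14.43 and 14.46. In MSCEPO it fell by 1.49 on the log2 scale (limma adjusted p = 0.000552), with values of 14.46, 13.97 and 13.52. In DPSC it fell by 0.84 on the log2 scale (limma adjusted p = 0.0384), and that call was lost on leaving out any of 12 of the 15 libraries, one at a time. The low end of Rp1 was MSCEPO replicate 3, in which Rom1 and Reep6 were the highest of their group.

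Abca4 passed the test in all 3 groups. Its values were 13.74, 13.65 and 13.70 in MSC, a log2 fold change of -0.75 (SE 0.11, limma adjusted p = 0.00151). In MSCEPO they were 13.61, 13.47 and 13.15, a log2 fold change of -1.04 (limma adjusted p = 0.000186), or -0.91 without replicate 3 (limma adjusted p = 0.000163). In DPSC they were 13.78, 13.64 and 13.78, a log2 fold change of -0.72 (limma adjusted p = 0.00581). All 9 libraries lay under all 3 of Sham and all 3 of NT.

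Cdhr1 fell in both MSC groups, at log2 fold changes of -0.85 in MSC (SE 0.14, limma adjusted p = 0.00244) and -0.84 in MSCEPO (limma adjusted p = 0.00252). Its 6 libraries there lay between 14.23 and 14.51. In DPSC it ranged from 14.42 to 14.88, a log2 difference of -0.52 (limma adjusted p = 0.0685). The 3 DPSC libraries of Cdhr1 all lay above the 3 of MSC, as those of 3.03% of all genes did.

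Impg1 had values of 11.72, 11.54 and 11.52 in MSC, a log2 fold change of -0.92 (SE 0.26, limma adjusted p = 0.0313). That call was lost on leaving out any of 6 of the 15 libraries, MSC replicate 1 among them (limma adjusted p up to 0.091). In MSCEPO the values were 11.79, 11.31 and 10.35, a log2 fold change of -1.36 (limma adjusted p = 0.00629), or -0.96 without replicate 3 (limma adjusted p = 0.00225). In DPSC they were 11.78, 11.69 and 11.57, a log2 difference of -0.84 (limma adjusted p = 0.117).

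Impg2, Fscn2 and Prom1 passed the test in none of the 3 groups. Impg2 had values of 14.39, 14.09 and 14.03 in MSC, all above NT, with a log2 difference of 0.42 (SE 0.46, limma adjusted p = 0.587). In MSCEPO they were 14.33, 13.89 and 11.90, a log2 difference of -0.37 that turned to 0.37 without replicate 3. In DPSC they were 13.53, 14.21 and 13.72, on both sides of NT, with a log2 difference of 0.077 whose sign also changed with the library left out.

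Fscn2 lay above NT in all 3 MSC libraries, at 10.53, 10.58 and 10.61, a log2 difference of 0.20 (SE 0.13, limma adjusted p = 0.324). It overlapped with NT in MSCEPO and DPSC, where it ranged from 10.34 to 10.71 and from 10.44 to 10.88. Prom1 ranged from 12.37 to 12.98 over the 9 cell-injected libraries, and its log2 differences from NT were -0.22 in MSC, -0.37 in MSCEPO and -0.20 in DPSC (limma adjusted p 0.101 to 0.501). Its highest level was in NT and its lowest in MSCEPO, and no neighbours in that order were free of overlap.

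**Figure D3:**
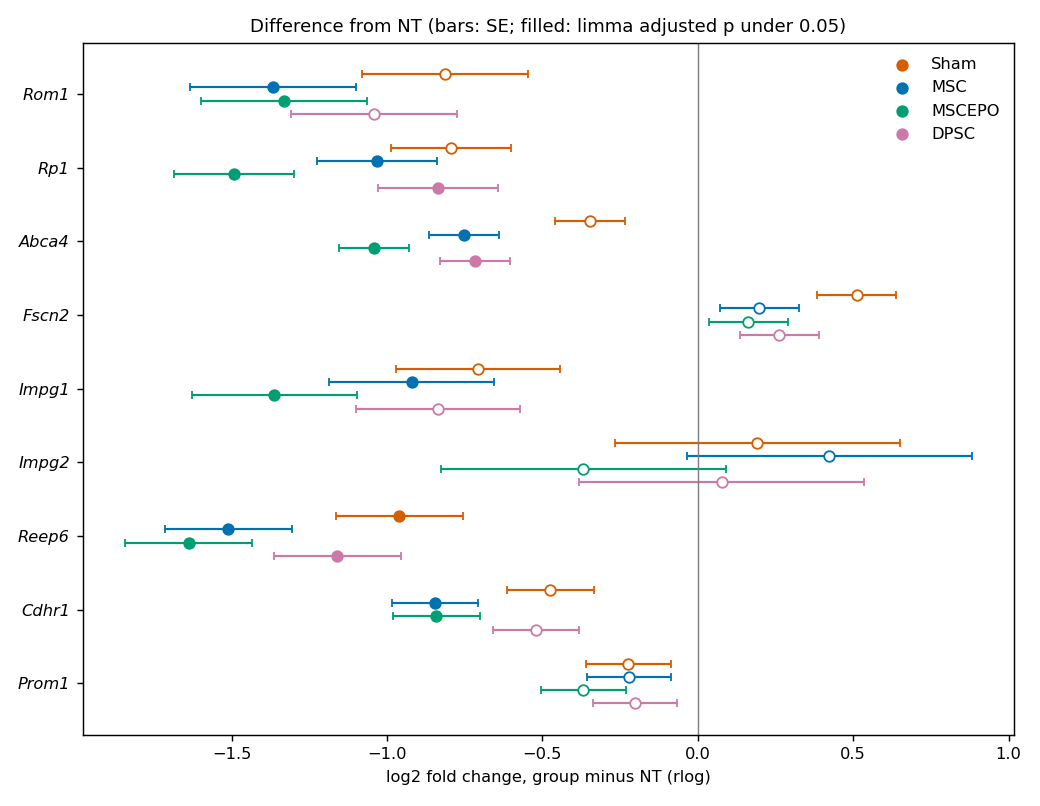
log2 fold change (x axis) of the 9 genes in Sham, MSC, MSCEPO and DPSC against NT; bars are the SE of the fit, and filled points have a limma adjusted p under 0.05. Filled points lie left of 0 throughout, from Reep6 at -1.64 in MSCEPO to Abca4 at -0.72 in DPSC, while Fscn2, Impg2 and Prom1 have open points.

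The counts depend on MSCEPO replicate 3 for DPSC as well. Without it, 6 genes fell in DPSC against NT, beside 7.65% of all genes tested that were called in either direction, the additional ones being Rom1, Cdhr1 and Impg1 (limma adjusted p 0.00772, 0.0351 and 0.00617). In MSC and MSCEPO 6 genes were called both with and without it. Without MSC replicate 1 the counts were 5 in MSC, 6 in MSCEPO and 3 in DPSC.

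The next question was whether the genes differed between the cell-injected groups and Sham. No gene of the set passed the limma threshold in MSC, in MSCEPO, in DPSC or in the 3 groups together against Sham. Few genes of the whole table did so, at 0%, 0.0259%, 0.0195% and 0.0195% of all genes, while 2052, 1281, 366 and 1514 genes had an unadjusted p under 0.05. Without MSC replicate 3, 698 genes (4.53%) were called in MSC against Sham, and 0 of the set. The authors, with DESeq2 in place of limma on rlog values, listed many more genes for MSC and MSCEPO against Sham. Against Sham, all 9 genes had a fitted difference below 0 in the 3 groups together, and the median was -0.32, beside -0.0002 over all genes tested. Without MSCEPO replicate 3, 8 of the 9 were below 0, Impg2 was at 0.0985 and the median was -0.27. Without Sham replicate 1, Prom1 and Impg2 were at 0.0695 and 0.0047.

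Abca4 came closest. Its 9 cell-injected libraries, from 13.15 to 13.78, lay under the 3 Sham libraries, from 14.08 to 14.12. The log2 difference was -0.49 (SE 0.09, limma adjusted p = 0.0931), the 22nd smallest p of 15424 genes, and 1.5% of all genes tested lay lower without overlap in this comparison. For MSCEPO alone it was -0.69 (SE 0.11, limma adjusted p = 0.0675), which is 1.62-fold below Sham. Without MSCEPO replicate 3 the adjusted p was 0.0215 for the 3 groups together, at a log2 difference of -0.45, and 0.0372 for MSCEPO alone, at -0.56.

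The other rim, axoneme and trafficking genes lay lower in the MSC groups than in Sham, without passing the test. Rom1 had a log2 difference of -0.55 in MSC (SE 0.27, limma adjusted p = 0.40) and Reep6 of -0.55 (SE 0.20, limma adjusted p = 0.250), each with 3 libraries below the 3 of Sham. Rp1 had a log2 difference of -0.70 in MSCEPO (SE 0.19, limma adjusted p = 0.338), again without overlap, and of -0.46 without MSCEPO replicate 3. In MSC the difference of Rp1 was -0.24 (limma adjusted p = 0.665). Rom1 overlapped with Sham in MSCEPO, at -0.52 (limma adjusted p = 0.635), or -0.86 without replicate 3. In DPSC their differences were -0.23 for Rom1, -0.20 for Reep6 and -0.0405 for Rp1, and all 3 overlapped with Sham. By overlap alone, 6 genes of the set lay below Sham in MSC, 5 in MSCEPO and 1 in DPSC, beside 11.3%, 6.81% and 5.07% of all genes.

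Fscn2, higher in Sham than in NT, had its Sham libraries above all 6 MSC and MSCEPO libraries, with log2 differences of -0.31 and -0.35 (SE 0.13, limma adjusted p = 0.300 and 0.530). The order of its group means was Sham, DPSC, MSC, MSCEPO and NT, and each neighbour in that order overlapped with the next. For Reep6 the order was NT, Sham, DPSC, MSC and MSCEPO, and only NT and Sham were free of overlap. For Abca4 the order was the same, and only DPSC and MSC overlapped; MSCEPO lay below MSC without overlap, as 2.18% of all genes did.

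Between the cell-injected groups, 0 genes of the set and 0 of all genes tested passed the limma threshold in each of the 3 comparisons, while 585, 1083 and 382 genes had an unadjusted p under 0.05 in MSCEPO against MSC, DPSC against MSC and DPSC against MSCEPO. The widest difference of the set between MSCEPO and MSC was that of Impg2, at -0.79 (SE 0.46, limma adjusted p = 0.754), with MSCEPO replicate 3 at 11.90. Without that library it was -0.0545, and the widest was that of Reep6, at -0.34. All 9 genes had a fitted difference above 0 in DPSC against MSCEPO, from 0.10 for Fscn2 to 0.66 for Rp1. Without MSCEPO replicate 3, 8 of the 9 did, from 0.0034 for Fscn2 to 0.69 for Reep6, and Impg2 was at -0.29.

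**Figure D4:**
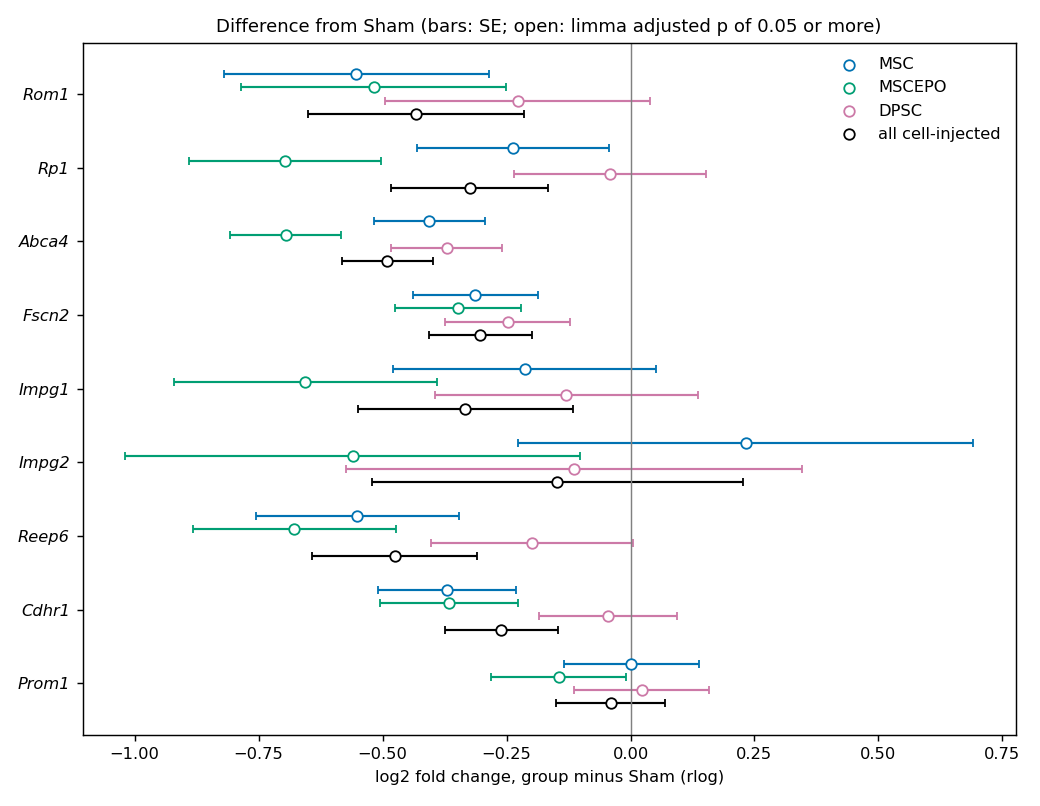
log2 fold change (x axis) of the 9 genes in MSC, MSCEPO, DPSC and the 3 cell-injected groups together against Sham; bars are the SE of the fit. All points are open, since no limma adjusted p was under 0.05, and Abca4 in MSCEPO at -0.69 is the point with the smallest adjusted p, 0.0675.

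Markers of other cells were also compared between the groups. The mean rlog value of 12 macrophage and microglia marker genes was 7.12 ± 0.18 (SD, n = 3) in NT, 8.36 ± 0.39 (SD, n = 3) in Sham, 9.62 ± 0.80 (SD, n = 3) in MSC, 9.07 ± 0.42 (SD, n = 3) in MSCEPO and 8.44 ± 0.65 (SD, n = 3) in DPSC. Of the T and NK cell markers 10 were tested, with group means of 4.30, 4.44, 6.22, 5.10 and 4.78 in the same order, and MSC replicate 1 was the highest at 7.57. The retinal pigment epithelium markers had group means of 10.5, 9.99, 9.50, 9.69 and 10.1. Their means per library overlapped with NT (10.0 to 11.0) in Sham (9.77 to 10.3), MSC (8.63 to 10.4), MSCEPO (8.90 to 10.2) and DPSC (9.575 to 10.6). By single gene, 7 of the 13 lay lower in Sham than in NT without overlap, beside 15.3% of all genes. Fitted differences there ran from -2.17 to 0.50, 7 below 0 and 6 above, with 0 called. Against NT, 5 were called as lower in MSC and 2 in MSCEPO, beside 6.37% and 5.81%. Called as higher was 1 in MSCEPO, beside 5.83%, and in DPSC 0 were called. The lens markers varied within groups, from 8.32 to 14.2 in DPSC. The part of these cells in the differences of the outer segment genes was not tested.

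A further list of 42 outer segment and photoreceptor genes, with 39 tested, gives the surroundings of the set. Against NT, 4 of them fell in Sham, 30 in MSC, 34 in MSCEPO and 23 in DPSC, beside 0.331%, 6.37%, 5.81% and 1.41% of all genes. None was called as higher, beside 0.558%, 11%, 5.83% and 1.43% of all genes. All 39 had fitted differences below 0 in each of the 4 comparisons, with medians of -0.59, -1.02, -1.23 and -0.87. The medians of the 9 disc and matrix genes were -0.48, -0.85, -1.04 and -0.72.

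The 4 called in Sham were Rbp3, which carries retinoids through the matrix (log2 fold change -0.82), Cnga1 and Cngb1, the subunits of the rod cyclic nucleotide-gated channel (-0.84 and -0.51), and Slc24a1, the rod sodium, calcium and potassium exchanger (-0.88), with limma adjusted p from 0.0224 to 0.0438. Against Sham, 0 of the 39 were called in the 3 cell-injected groups together, beside 0.0195% of all genes. The 4 with the smallest p there were Grk1, rhodopsin kinase (log2 difference -0.74), Rbp3 (-0.60), Sag, rod arrestin (-0.73), and Pde6b, a subunit of the rod phosphodiesterase (-0.65), with limma adjusted p from 0.136 to 0.201.

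Set against the mean of the 12 rod markers within each library, the genes split. Rom1 stood at -0.31 ± 0.09 (SD, n = 3) in NT, -0.40 ± 0.15 (SD, n = 3) in Sham and -0.39 ± 0.07 (SD, n = 3) in MSC on this log2 scale. Prom1 stood at -2.24 ± 0.08 (SD, n = 3), -1.74 ± 0.12 (SD, n = 3) and -1.18 ± 0.02 (SD, n = 3) in the same groups. Fscn2 stood at -4.87, -3.63 and -3.39, and Impg2 at -1.5, -0.58 and 0.21. The group means of Reep6 on this scale lay between -1.37 and -1.14 and those of Rp1 between 0.16 and 0.49. Abca4, Fscn2, Impg1, Impg2, Cdhr1 and Prom1 had a higher mean than NT in each of the other 4 groups, as a description with no test. For Impg1 the means of NT, Sham and MSCEPO lay close, at -2.73 ± 0.09, -2.71 ± 0.22 and -2.64 ± 0.87 (SD, n = 3). MSCEPO replicate 3 lay under the NT mean for Rp1 (-0.46 beside 0.23), Abca4 (-0.83 beside -0.79), Impg1 (-3.63) and Impg2 (-2.08 beside -1.5). Rom1 stood at -0.19 ± 0.43 (SD, n = 3) in MSCEPO, with replicate 3 at 0.31, above the NT mean.

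Of 22 paralogs of the set, 17 were tested. Against NT, 0 of them were called as lower, beside 6.37% of all genes in MSC, 5.81% in MSCEPO, 1.41% in DPSC and 0.331% in Sham. Called as higher were 5 in MSC, 3 in MSCEPO, 1 in DPSC and 0 in Sham, beside 11%, 5.83%, 1.43% and 0.558%. They include Dclk1, a doublecortin-like kinase related to Rp1 (log2 fold change 0.91 in MSCEPO), the tetraspanins Cd9 (0.98 in MSCEPO) and Cd81 (0.49 in MSC), and Abca1, a cholesterol transporter related to Abca4 (1.42 in MSC), with limma adjusted p from 0.000934 to 0.0278.

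Over the 15 libraries the genes of the set varied together to different degrees. Reep6 had a Pearson r of 0.969 with Cdhr1 and 0.967 with Rom1, and Rp1 of 0.954 with Impg1 and 0.94 with Abca4. Fscn2 had an r from -0.29 to 0.393 with the other 8, and Impg2 had its highest r with Impg1, at 0.565. These are descriptions over libraries that share the group differences and MSCEPO replicate 3, with no test.

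The mean of the set, each gene centred on its own mean, was most like Crx, Hs3st3b1, Gnb1, Opn1mw and Pde6a among the genes searched, at r from 0.983 to 0.984 over 15 libraries. The search, here and by single genes, took the tested genes with a symbol, except symbols that start with LOC, RGD or AABR. Crx encodes a transcription factor of photoreceptors, Gnb1 the beta subunit of transducin, Opn1mw a cone opsin and Pde6a a rod phosphodiesterase subunit. By single genes, Rom1 was most like Adipor1 (r = 0.992), Reep6 most like Rdh12 (r = 0.987), Abca4 most like Herc3 (r = 0.986), Cdhr1 most like Rmc1 (r = 0.985), Rp1 most like Nt5e and Impg1 most like Nol11 (both r = 0.977). Impg2 was most like Zfp148 (r = 0.96), Fscn2 most like Ap1b1 (r = 0.905) and Prom1 most like Btbd10 (r = 0.887), the lowest of the set.

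MSCEPO replicate 3 split the set by gene. Against the mean of the other 2 MSCEPO libraries, Rom1 was 1.03 higher and Reep6 0.63 higher on the log2 scale. In the same library Impg2 differed by -2.21, Impg1 by -1.20, Rp1 by -0.70 and Abca4 by -0.39. Rom1 and Reep6 have the shortest genomic spans of the set in RefSeq, 2009 and 6907 bases, and these 4 lower genes span from 99537 bases for Impg2 to 462084 bases for Rp1. Fscn2 was also lower, by -0.29, with a span of 18646 bases, and Prom1 differed by 0.10 with a span of 104706 bases, so not all 9 genes followed the order of span.

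A relation of this kind held over the table as a description. In MSCEPO replicate 3 the median difference from the other 2 libraries was 0.28 over the genes in the lowest quartile of span and -0.39 over those in the highest (Spearman rho -0.429 over 13443 genes with a span, which are not independent). In the other 14 libraries rho lay between -0.272 and 0.397, the highest in MSCEPO replicates 1 and 2, whose comparison includes replicate 3. The study's methods state a minimum RNA integrity number that all samples met, with no value for each library. The part of RNA quality or library preparation in this was not tested.

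**Figure D5:**
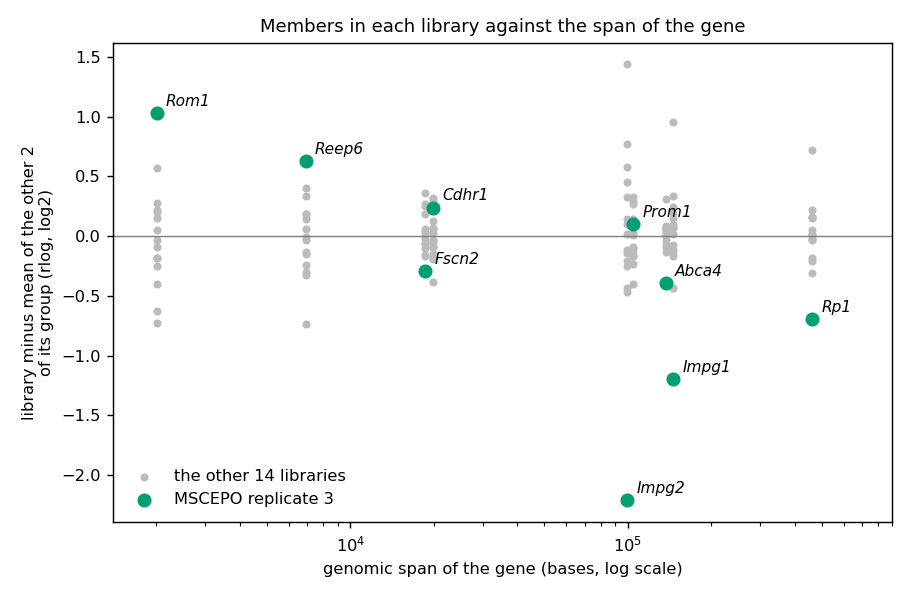
Difference of each library from the mean of the other 2 of its group (rlog, log2, y axis) for the 9 genes, against the genomic span of the gene (bases, log x axis); green points are MSCEPO replicate 3, grey points the other 14 libraries, and for MSCEPO replicates 1 and 2 the comparison includes replicate 3. The green points run from Rom1 at 1.03 (2009 bases) to Impg2 at -2.21 (99537 bases), with Prom1 at 0.10, Cdhr1 at 0.24 and Fscn2 at -0.29.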

How the data were processed

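Retinal mRNA of 15 samples in 5 groups of 3 was sequenced, and the labels gave each sample its group. Per the labels and the study's methods, the authors ran Salmon 1.1.0 against Rnor_6.0 transcripts, imported gene sums with tximport and deposited DESeq2 rlog values (log2, corrected for library size, shrunken toward each gene's mean). A table of the whole series holds 15 further columns of per-sample values, a copy of the same values, which were not used. A column marking 88 genes was not used either.

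The rlog values were analysed as deposited with limma 3.58.1 in R 4.3.3. Of 20375 genes, the 15424 whose mean rlog over the 15 libraries reached 3.32 (10 on a linear scale) entered 1 fit of group means, with a mean-dependent prior variance and Benjamini-Hochberg adjustment within each of 11 comparisons. The difference between Impg1 and Impg2 was compared with two-sided exact permutation tests in Python 3.11.15 with SciPy 1.17.1. The script was tested on simulated data. The members, lists and tests were chosen with earlier results of these data known.

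All members are named. Of the other photoreceptor genes, the 4 with the smallest p in Sham against NT and in the cell-injected groups against Sham are named, of the paralogs up to 4 called ones by smallest p, and by likeness the 5 genes closest to the mean of the members and the closest gene to each. Cell type markers are given by list; lists of cone, bipolar cell and Müller glia markers were summarised with means of 8.88 to 9.24, 10.9 to 11.1 and 12.3 to 12.8 over the groups. The alternatives were other libraries in the fit, filters, scaling, a replicate block, array weights, the DEG rule, no trend and each library left out in turn. Genomic spans and promoters came from RefSeq tables of GRCr8, a build other than that of the files, and 87.2% of tested genes had a span.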

Additional observations from a re-analysis of the deposited data

How the results depend on the processing

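Over all settings, 1581 of 1701 single-gene values kept their direction and side of the threshold, 49 passed it, 43 no longer did and 28 changed sign. The number of genes of the set called was 1 in Sham, 6 in MSC, 6 in MSCEPO and 3 in DPSC against NT, and 0 in the other comparisons. For Sham against NT it was 5 with only the groups compared (8.65% of all genes called), 7 with array weights (15.4%), and 0 without a filter, with median centring, with quantile normalization, without the variance trend and with the DEG rule. The DEG rule gave 3 in MSC and 1 in DPSC against NT. For DPSC against NT, quantile normalization gave 1 (1.95%), array weights 6 (23.8%) and only the groups compared 4 (2.58%). For MSCEPO against NT, only the groups compared gave 4 (6.47%). Array weights gave 8 in MSC (49.4%) and 8 in MSCEPO (39.3%), and the 12 libraries without DPSC gave 5 in MSC (15.5%). Against Sham, array weights gave 5 in MSC (18.1%), 5 in MSCEPO (7.16%) and 5 in the cell-injected groups together (11.6%), median centring gave 1 in MSCEPO (0.0584%), and array weights gave 3 in DPSC against MSC (11.9%). They gave MSCEPO replicate 3 a weight of 0.083. The cause was not tested. With each library left out in turn the counts ran from 0 to 6 in Sham, 5 to 6 in MSC and 1 to 6 in DPSC against NT, and from 0 to 1 in MSCEPO and in the cell-injected groups against Sham; the 6 in Sham and in DPSC and the 1 in the cell-injected groups came without MSCEPO replicate 3, the 1 in DPSC without NT replicate 2 or 3, and the 1 in MSCEPO against Sham without MSCEPO replicate 1 or 3 or DPSC replicate 2.

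Values whose sign changed were not called. Prom1 in MSC against Sham was -0.0405 with median centring and -0.16 with array weights, Prom1 in DPSC against Sham was -0.0813 with array weights, and Impg2 against NT was 0.28 in MSCEPO and -0.0243 in DPSC with array weights. With a library left out, Impg2 ran from -0.85 to 0.37 in MSCEPO and from -0.12 to 0.22 in DPSC against NT, and against Sham from -1.04 to 0.18 in MSCEPO, from -0.31 to 0.038 in DPSC and from -0.31 to 0.10 in the cell-injected groups. Prom1 against Sham ran from -0.0767 to 0.11 in MSC, from -0.0675 to 0.13 in DPSC and from -0.12 to 0.0695 in the cell-injected groups. In DPSC against Sham, Rom1 ran from -0.42 to 0.0148, Rp1 from -0.11 to 0.0634, Reep6 from -0.33 to 0.0473 and Cdhr1 from -0.15 to 0.0827. The change of Impg1 minus Impg2 from NT to the sodium iodate libraries kept its direction with any 1 library left out (exact permutation p 0.00549 to 0.022). The difference Prph2 minus Rom1 was not run. Replicate numbers were not taken as pairs. Residuals of same-numbered libraries correlated at a median of -0.023 over 30 pairs, with 12 over 0.1. Those of other-numbered libraries correlated at a median of -0.008 over 60 pairs, with 19 over 0.1. These values do not settle whether libraries were paired. With the replicate block the counts were 1 in Sham, 6 in MSC, 6 in MSCEPO and 3 in DPSC against NT, and it changed no count of the set. The depth of the libraries is unknown from these values, and 3 libraries a group limit the precision.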
